A study of Homo sapiens with 4 samples.

Results

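The NF-kB subunits and inhibitors were followed as a set of 10 genes in U937 cells, an established human lymphoma line with monocyte-like features. All probe sets annotated to the 10 symbols were taken from the values of an Affymetrix Human Genome U133 Plus 2.0 array, 19 probe sets for 9 of the genes, out of 19775 genes that had a probe set with 1 symbol. BIRC3, the remaining gene of the set, is not analysed here. The set holds the subunits NFKB1, RELA, REL, NFKB2 and RELB and the inhibitors NFKBIA, NFKBIE, NFKBIZ and TNFAIP3.

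The study had 4 arrays, 1 per group. The combination group received 0.05% Sonazoid plus ultrasound at 0.3 W/cm2 for 1 min, the ultrasound group the same ultrasound alone and the Sonazoid group 0.05% Sonazoid alone, each with 3 h of incubation at 37 °C afterwards, and the control group was left untreated at 37 °C. Sonazoid is an ultrasound contrast agent made of gas-filled microbubbles. How long the control cells were kept is not stated in the labels. With 1 array per group no difference below has a replicate check, and no test, SD or p-value is given. Signals are probe set intensities scaled to a common trimmed mean per array. A floor of 23.8, the median over the 4 scaled arrays, was applied to low values before taking log2. A gene is represented by its brightest probe set unless a probe set is named, and a difference of 1.5-fold was the limit for calling a gene higher or lower.

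NF-kB transcription factors are dimers of Rel-family proteins. In resting cells they are held in the cytoplasm by IkB proteins, and stimuli such as cytokines and microbial products activate the IkB kinase, which marks IkB for degradation and frees the dimers. The freed dimers switch on genes for cytokines and survival factors and also genes for their own inhibitors, which shortens the response. RELA with the NFKB1 product p50 is the main dimer of the canonical branch, REL is used mostly in blood cells, and RELB with the NFKB2 product p52 serves the slower noncanonical branch. In monocytes the pathway is known for driving the inflammatory cytokines.

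The genes for the inhibitors are known targets of NF-kB itself, so the bases before their transcript starts are shown here with the kB consensus in capitals. The consensus begins with a run of G and ends with pyrimidines and CC, and both strands were searched. Sequences are those of RefSeq on GRCh38.p14, 250 bases upstream of an annotated start, 5′ to 3′ on the strand of the gene. NFKBIA, TNFAIP3 and NFKBIZ are shown because they were at least 1.5-fold higher with ultrasound both without and with Sonazoid, and NFKB1 because it holds a match and its signal differed little. NFKBIZ has a window for each of its 2 annotated starts.
NFKBIA (chr14:35404750-35404999, minus strand): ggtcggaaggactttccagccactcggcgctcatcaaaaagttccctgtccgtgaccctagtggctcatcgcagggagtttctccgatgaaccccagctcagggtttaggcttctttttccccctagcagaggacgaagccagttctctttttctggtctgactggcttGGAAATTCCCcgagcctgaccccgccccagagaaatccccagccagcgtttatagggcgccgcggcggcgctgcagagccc
TNFAIP3 (chr6:137867009-137867258, plus strand): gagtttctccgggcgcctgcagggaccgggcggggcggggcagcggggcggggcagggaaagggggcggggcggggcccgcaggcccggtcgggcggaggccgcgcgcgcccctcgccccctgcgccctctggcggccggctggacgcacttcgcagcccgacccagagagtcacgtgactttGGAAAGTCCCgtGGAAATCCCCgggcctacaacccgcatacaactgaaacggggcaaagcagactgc
NFKBIZ, first start (chr3:101827740-101827989, plus strand): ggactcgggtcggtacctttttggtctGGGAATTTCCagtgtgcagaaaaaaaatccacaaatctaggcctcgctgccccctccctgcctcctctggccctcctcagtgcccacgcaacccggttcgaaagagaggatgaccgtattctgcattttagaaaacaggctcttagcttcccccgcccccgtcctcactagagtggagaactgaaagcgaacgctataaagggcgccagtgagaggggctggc
NFKBIZ, second start (chr3:101849264-101849513, plus strand): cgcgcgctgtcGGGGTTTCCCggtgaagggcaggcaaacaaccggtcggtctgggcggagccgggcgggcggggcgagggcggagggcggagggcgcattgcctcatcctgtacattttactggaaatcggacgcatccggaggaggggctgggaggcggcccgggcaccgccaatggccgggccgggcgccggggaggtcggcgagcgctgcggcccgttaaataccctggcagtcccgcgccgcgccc
NFKB1, first start (chr4:102501109-102501358, plus strand): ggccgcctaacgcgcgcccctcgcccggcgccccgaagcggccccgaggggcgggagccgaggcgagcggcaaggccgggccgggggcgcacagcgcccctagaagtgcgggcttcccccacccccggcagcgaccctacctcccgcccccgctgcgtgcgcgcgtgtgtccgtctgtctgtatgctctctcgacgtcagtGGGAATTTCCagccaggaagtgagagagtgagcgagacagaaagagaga

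Windows were found for 7 of the 9 measured members, 12 windows in all. Of these, 8 windows, belonging to 6 of the 7 genes, held a kB match, against 9.96% of all 35116 windows of the same length. The match in NFKBIA lay 81 to 72 bases before the start, on the opposite strand. TNFAIP3 had a pair of matches, 67 to 58 and 55 to 46 bases before its start. NFKB1 and the first window of NFKBIZ held the same letters, GGGAATTTCC, which NFKBIA and REL carried on the opposite strand. That exact string, picked after the matches were seen, occurred in 4 of the 12 windows and in 0.142% of all windows. The subunit gene NFKB2 had matches upstream of 2 of its 3 starts, and neither window of RELA held one. RELB and NFKBIE were not searched. NFKB1 and REL carried a match and differed little between the arrays, as given below, so a match did not go with a difference in every member.

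**Figure D1:**
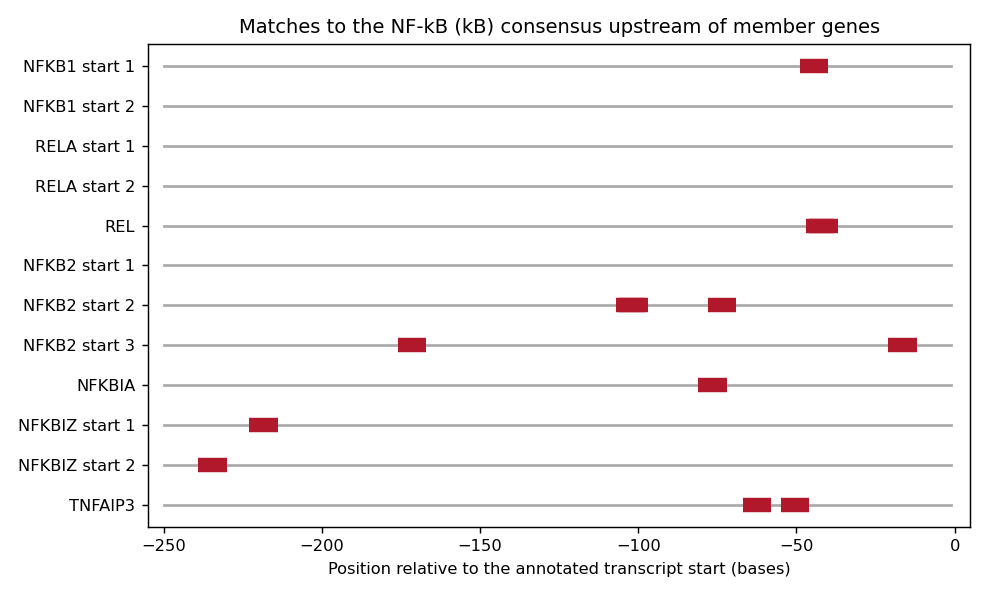
Positions of matches to the kB consensus (red blocks, either strand) in the 250 bases upstream of each annotated transcript start of 7 member genes; the x axis is the distance from the start in bases and each grey line is 1 window. Of the 12 windows 8 hold a match, and those of TNFAIP3, REL and the first of NFKB1 lie within 67 bases of the start.

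The inhibitor genes NFKBIA, TNFAIP3 and NFKBIZ stood higher on both arrays with ultrasound, and the canonical subunits did not. NFKBIA encodes IkB alpha, the inhibitor that is degraded and resynthesised in each round of NF-kB activity. Its signal was 1354 in the combination, 1453 with ultrasound, 862 with Sonazoid and 901 in control. Both arrays with ultrasound stood above both without, and neither pair spread by more than 1.07-fold. NFKBIA was 1.61-fold higher with ultrasound than in control and 1.57-fold higher in the combination than with Sonazoid. In the combination it stood 1.5-fold above control, just inside the limit (log2 0.59).

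TNFAIP3 encodes A20, a ubiquitin-editing enzyme that ends signalling upstream of the IkB kinase. Its signal was 678 in the combination, 679 with ultrasound, 443 with Sonazoid and 414 in control, so that the arrays again paired by ultrasound. It was 1.64-fold above control both in the combination and with ultrasound, and 1.53-fold higher in the combination than with Sonazoid. A dimmer probe set of TNFAIP3 (202643_s_at) read 224, 266, 157 and 189 on these arrays in the same order. It showed the same pairing at smaller size, 1.19-fold above control in the combination and 1.41-fold with ultrasound.

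NFKBIZ encodes IkB zeta, a nuclear member of the IkB family that acts on selected NF-kB target genes, and was the member farthest above control in the combination. Its signal was 149.6 in the combination, 128 with ultrasound, 84.7 with Sonazoid and 73.9 in control. The combination stood 2.02-fold and ultrasound 1.73-fold above control, and the combination 1.77-fold above Sonazoid. The other probe set (223217_s_at) read 94.6 in the combination, 71.7 with ultrasound, 57.4 with Sonazoid and 70.9 in control. There the combination was 1.33-fold above control while ultrasound was 1.01-fold above it, so the probe sets of NFKBIZ disagree on ultrasound alone.

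NFKBIE encodes IkB epsilon, another cytoplasmic IkB. Its signal was 788 in the combination, 669 with ultrasound, 558 with Sonazoid and 648 in control. The combination was the high array, 1.41-fold above Sonazoid and 1.22-fold above control, and ultrasound stood 1.03-fold above control. NFKBIE therefore stayed under 1.5-fold in every comparison. The probe sets read for NFKBIA, TNFAIP3 and NFKBIZ have the _s_at ending, which marks probe sets that may bind more than 1 transcript, and none of these genes had a gene-specific one above the floor.

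**Figure D2:**
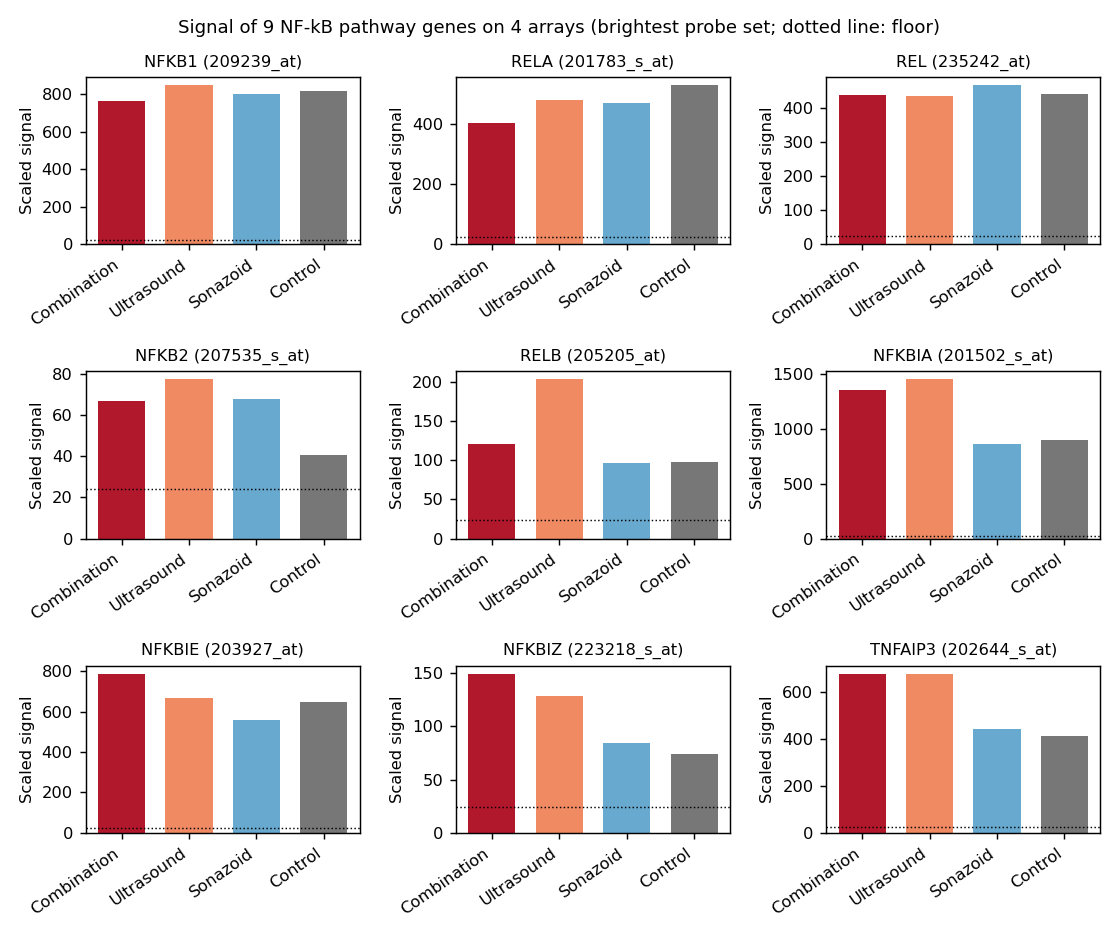
Scaled signal of the brightest probe set of 9 member genes on the 4 arrays, 1 bar per array (combination, ultrasound, Sonazoid, control), each panel on its own linear axis from 0, with the floor of 23.8 as a dotted line. NFKBIA, NFKBIZ and TNFAIP3 stand higher on both arrays with ultrasound, RELB is highest with ultrasound alone, and NFKB2 is lowest in control.

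Of the canonical subunits, NFKB1, which encodes the p105 precursor of p50, was at 764 in the combination, 849 with ultrasound, 802 with Sonazoid and 818 in control. The highest of these arrays was 1.11-fold over the lowest. RELA, the transactivating partner of p50, was at 402 in the combination, 478 with ultrasound, 466 with Sonazoid and 527 in control. Control was the highest array for RELA, 1.31-fold over the combination. Its dimmer probe set (209878_s_at) read 111, 113, 128 and 169 in the same order, 1.52-fold below control in the combination and 1.49-fold below with ultrasound. Both RELA probe sets were also lower than control with Sonazoid, by 1.13-fold and 1.32-fold. For RELA all 3 treated arrays were thus below control.

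REL, the c-Rel subunit, had 5 probe sets, and its brightest read 439.6 in the combination, 437 with ultrasound, 468 with Sonazoid and 443 in control, a span of 1.07-fold. The other 3 that were above the floor on all arrays spanned 1.26-fold to 1.3-fold, with ultrasound the lowest array in each. The fifth (206035_at) was above the floor in control alone, at 26.6. No REL probe set reached 1.5-fold in any comparison.

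The noncanonical subunits had patterns of their own. RELB was at 121 in the combination, 204 with ultrasound, 96.7 with Sonazoid and 98.4 in control. Ultrasound alone was the high array, 2.07-fold above control and 1.69-fold above the combination, while the combination was 1.23-fold above control. RELB rests on 1 probe set. The departure from additivity was taken as combination minus Sonazoid less ultrasound minus control on the log2 scale. It was -0.73 for RELB, against -0.037 for NFKBIA, 0.027 for NFKBIZ and -0.10 for TNFAIP3. A large departure was not particular to RELB. For NFKB2 it was -0.95, for NFKBIE 0.45 and for the other NFKBIZ probe set (223217_s_at) 0.70.

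NFKB2, which encodes the p100 precursor of p52 and also acts as an IkB, was at 67 in the combination, 77.3 with ultrasound, 67.9 with Sonazoid and 40.7 in control. Control was the low array and the treated ones lay within 1.15-fold of each other, so NFKB2 did not follow ultrasound: it was 1.67-fold above control with Sonazoid alone. These signals are dim, and the gene-specific probe set (209636_at) read 32.9, 49.6, 38.2 and 40.7 in the same order, with the combination 1.24-fold below control and Sonazoid 1.07-fold below it. The third NFKB2 probe set was below the floor on every array, as was the second one of NFKBIA. The direction of NFKB2 in the combination and with Sonazoid thus depends on the probe set.

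**Figure D3:**
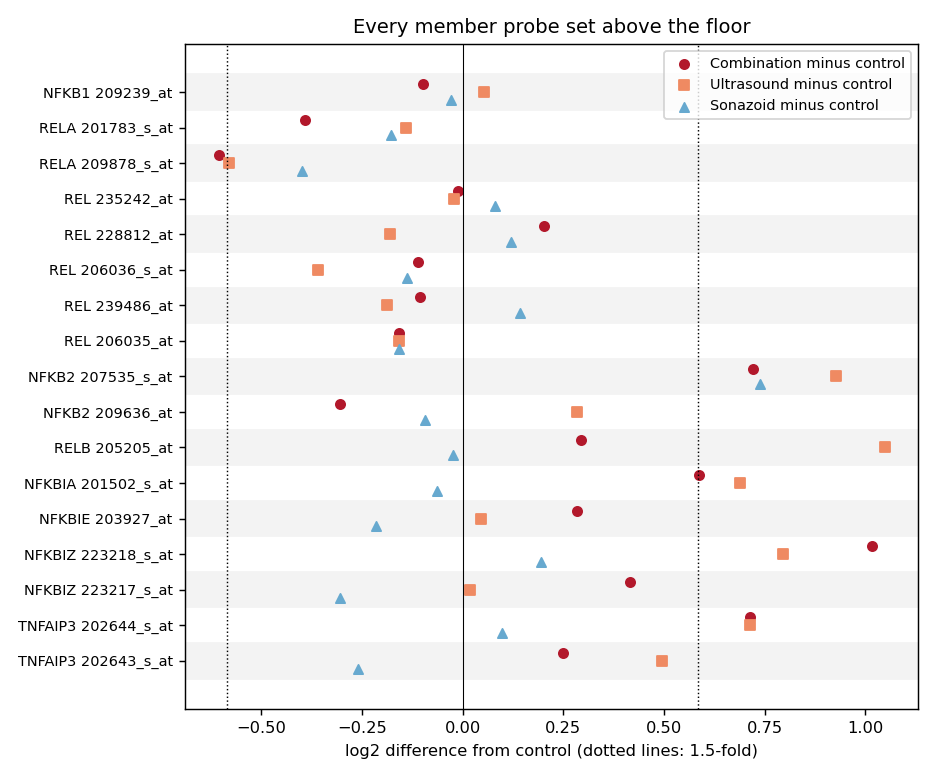
log2 difference from control of the combination (circles), ultrasound (squares) and Sonazoid (triangles) for the 17 member probe sets above the floor on at least 1 array, with 1.5-fold as dotted lines. The NFKBIA, NFKBIZ and TNFAIP3 probe sets lie to the right of 0 with ultrasound and in the combination, the RELA ones to the left, and the 2 NFKB2 ones differ from each other.

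By count, 4 of 9 members (NFKB2, NFKBIA, NFKBIZ and TNFAIP3) were at least 1.5-fold higher in the combination than in control, where 5.87% of all 12962 genes measured in that comparison were. With ultrasound against control 5 of 9 were, RELB being added, where 6.75% of all genes were. In the combination against Sonazoid 3 of 9 were (NFKBIA, NFKBIZ and TNFAIP3), where 5.85% of all genes were. None was 1.5-fold lower in these comparisons, where the shares of all genes were 4.67%, 4.03% and 4.36%. With Sonazoid against control NFKB2 was the 1 member 1.5-fold higher, where 3.96% of all genes were. None was lower with Sonazoid, where 4.29% of all genes were. In the combination against ultrasound 0 members were higher, where 4.36% of all genes were, and RELB was lower, where 5.88% were. At 2-fold the higher members were NFKBIZ in the combination against control, where 1.39% of all genes were, and RELB with ultrasound against control, where 1.65% were. The members were chosen with earlier results of these data known, so these counts are descriptions. The count in the combination against control was 2 with a floor of 100, with a pseudocount of 16 or with the probe sets of a gene averaged, and the lower call of RELB was lost with the values as deposited.

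The comparisons with control share the control array. Ultrasound against control and the combination against Sonazoid share none, and set ultrasound against its absence, without and with the microbubbles. By the labels only the second is matched in its 3 h of incubation, since that of the control is not stated. NFKBIA, NFKBIZ and TNFAIP3 were at least 1.5-fold higher in both comparisons, 3 of 9 members, where 1.52% of all 13965 genes were. In both, 0 members were lower, where 0.516% were. With a floor of 100 NFKBIA and TNFAIP3 were higher in both, with the probe sets of a gene averaged NFKBIA alone, and with gene-specific probe sets, which these 3 genes lack, 0 members. Among the 6 members at a signal of 100 or more on every array, NFKBIA and TNFAIP3 were, where 0.866% of 8084 such genes were. The median log2 difference of the 9 members was 0.69 in the first of these comparisons and 0.32 in the second, beside 0.023 and -0.0016 over all genes. In the combination against control it was 0.29, and with Sonazoid against control -0.024. The sign of this last value turned with the values as deposited, where the median of all genes was 0.089. Across the 9 members the differences of the 2 comparisons had a Pearson r of 0.53 and a Spearman rho of 0.53, and 7 had the same sign; the members share the arrays and their scaling.

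**Figure D4:**
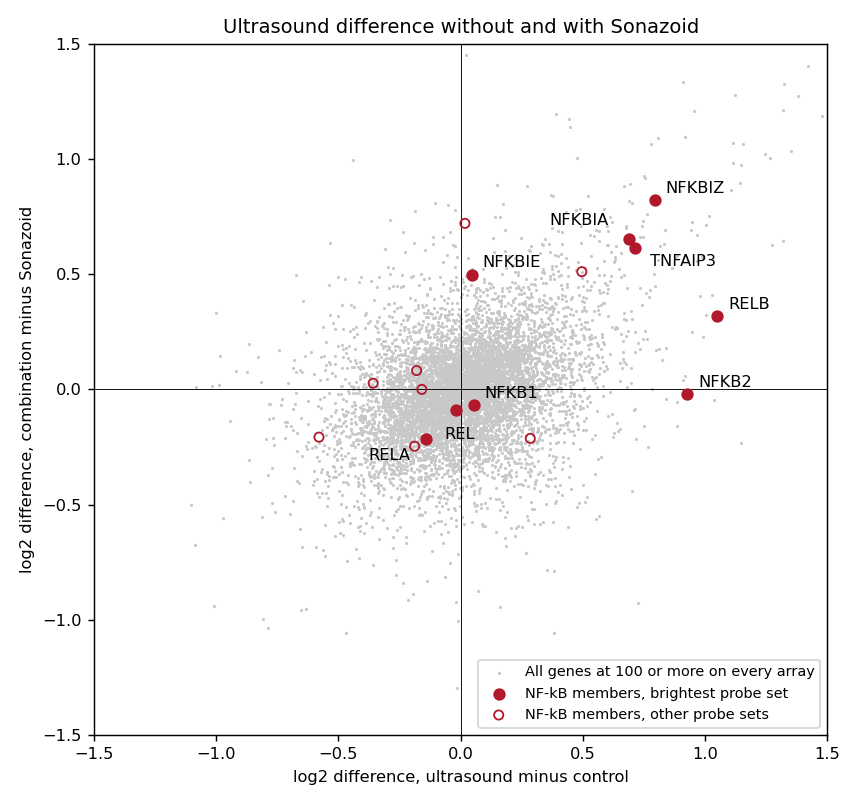
log2 difference of ultrasound minus control (x axis) against that of the combination minus Sonazoid (y axis), 2 comparisons with no array in common, for all genes at a signal of 100 or more on every array (grey) and the member probe sets (filled red, brightest; open red, others). NFKBIZ, RELB and NFKB2 are under 100 on some or all arrays, so the grey points are brighter genes and not matched to them. Of the filled points, NFKBIA, NFKBIZ and TNFAIP3 lie far to the upper right near the diagonal. RELB and NFKB2 lie to the right, and NFKB1, RELA and REL near 0. The filled point of NFKBIE lies at 0.046 on the x axis and 0.50 on the y axis. The open points of RELA (-0.58 on the x axis) and NFKBIZ (0.017 on the x axis, 0.72 on the y axis) lie apart from their filled ones.

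Sorted by role, all 6 inhibitor probe sets above the floor, from 4 genes, had both arrays with ultrasound above both without. Of the 11 subunit probe sets, from 5 genes, 1 did, that of RELB. Over all 26545 probe sets above the floor 17.3% did. Probe sets of the same gene are not separate support, and the split by role was not among the planned results. In this split NFKBIZ was counted with the inhibitors as a member of the IkB family. NFKB2, which also acts as an IkB, was counted with the subunits. The margin was narrow for NFKBIE (669 with ultrasound against 648 in control) and for NFKBIZ 223217_s_at (71.7 against 70.9). The reverse order was seen for 3 of the 11 subunit probe sets, 1 of RELA and 2 of REL, where 18.5% of all probe sets had it. Values were set to the floor before these counts, so arrays at the floor are ties, and REL 206035_at, above the floor in control alone, is not among the 3. With the values as deposited 5 of the 6 inhibitor probe sets kept this order, without NFKBIZ 223217_s_at, and all 6 did under quantile normalisation. Of the subunit probe sets, with the values as deposited 2 of 12 had both arrays with ultrasound above (RELB and NFKB2 207535_s_at) and 2 below (both of RELA), and under quantile normalisation 1 of 11 above (RELB) and 2 below (RELA 209878_s_at and REL 239486_at). At the gene level 5 of 9 members had both arrays with ultrasound above, where 18.8% of all genes did, and 1, REL, had both below, where 17.8% did. REL lost this order with the values as deposited, where RELA had both below instead, and also under quantile normalisation. Arrays that share ultrasound differ in Sonazoid and are not replicates.

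Within an array the scaling cancels, so each inhibitor was also set against the mean log2 signal of NFKB1, RELA and REL on the same array. Relative to these 3 subunits NFKBIA was 1.69-fold above control in the combination and 1.65-fold with ultrasound, against 0.985-fold with Sonazoid. TNFAIP3 was 1.84-fold, 1.68-fold and 1.1-fold, and NFKBIZ 2.27-fold, 1.78-fold and 1.18-fold, in the same order. NFKBIE was 1.37-fold, 1.06-fold and 0.887-fold. The ratio of inhibitor transcripts to those of NFKB1, RELA and REL was thus higher on both arrays with ultrasound for all 4 inhibitors. RELA itself stood 1.31-fold below control in the combination, which raises each ratio there. Higher ratios were not confined to inhibitors. On the same measure and in the same order the subunit RELB was 1.38-fold, 2.12-fold and 1.01-fold, and NFKB2 1.85-fold, 1.95-fold and 1.72-fold.

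The rest of the pathway was read from lists of receptors, adaptors and kinases, further inhibitors, and target genes. Target genes had a median log2 difference of 0.28 over 17 measured of 24 listed genes in the combination against control, with 5 at least 1.5-fold higher and 0 lower, where 5.87% and 4.67% of all genes were. With ultrasound against control it was 0.21 over 17, with 4 higher and 0 lower, where 6.75% and 4.03% of all genes were. With Sonazoid against control it was -0.027 over 16, a sign that turned with the values as deposited, where the median of all genes was 0.089. The chemokine CXCL2 was at 206 in the combination, 164 with ultrasound, 57.2 with Sonazoid and 84.5 in control. IER3, an early response gene of survival signalling, was at 262, 225, 123 and 128 in the same order. Both had the order of NFKBIA and TNFAIP3, high on the arrays with ultrasound. SOD2, the mitochondrial superoxide dismutase, was at 79.7, 54.3, 73.5 and 36.9, with control low as for NFKB2.

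In the combination against control the lists of upstream genes had medians near 0. With Sonazoid against control the median of receptors was 0.19 and that of adaptors and kinases 0.058, beside -0.00034 over all genes. In the combination against Sonazoid these medians were -0.12 and -0.099, beside -0.0016 over all genes. With the values as deposited the median of all genes in the combination against control was 0.16. Less that of all genes, the median of adaptors and kinases was -0.015 as scaled and -0.0058 with the values as deposited. For receptors it was -0.078 and -0.069. Over 17 of 21 adaptors and kinases the median in the combination against control was -0.018, positive with the values as deposited. As scaled 1 gene was higher and 0 lower, where 5.87% and 4.67% of all genes were, and with the values as deposited 2 and 0. The gene as scaled was MAP3K14, the NF-kB-inducing kinase of the noncanonical branch, at 93.4 in the combination, 62.6 with ultrasound, 59.6 with Sonazoid and 56.9 in control. In the combination the adaptor TRAF5 stood 1.43-fold below control and IKBKG, the regulatory subunit of the IkB kinase, 1.39-fold below. Over 11 of 14 receptors the median in the combination against control was -0.081, positive with the values as deposited. By count 0 receptors were higher and 1 lower, where 5.87% and 4.67% of all genes were. The lower gene was CD40, at 63.8 in the combination, 70.7 with ultrasound, 117 with Sonazoid and 102 in control. With the values as deposited its call was lost, and 3 receptors were higher and 0 lower. The shares of all genes were not computed for the values as deposited, where the median of all genes was 0.16. In the combination TNFRSF1B, a receptor of TNF, stood 1.49-fold below control and the bacterial sensor NOD2 1.46-fold above it.

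The further inhibitors did not share the pattern of NFKBIA and TNFAIP3. Over 13 of 16 the median in the combination against control was -0.10, positive with the values as deposited. Less the median of all genes it was -0.10 as scaled and -0.092 with the values as deposited. By count 0 were higher and 1 lower, where 5.87% and 4.67% of all genes were. CYLD, a deubiquitinase that restrains the pathway, was that gene, at 75.9 in the combination, 90.5 with ultrasound, 102 with Sonazoid and 125 in control, also under the limit with the values as deposited. NFKBIB, which encodes IkB beta, stood 1.19-fold below control in the combination, and IRAK3, a brake on Toll-like receptor signalling, 1.15-fold below. Of the 13, 1 had both arrays with ultrasound above both without and 7 had both below, where 18.8% and 17.8% of all genes did. Some of these margins were small, for 1 gene 208 in the combination against 210 with Sonazoid. These 2 counts were not repeated with the values as deposited, so they depend on the scaling used.

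**Figure D5:**
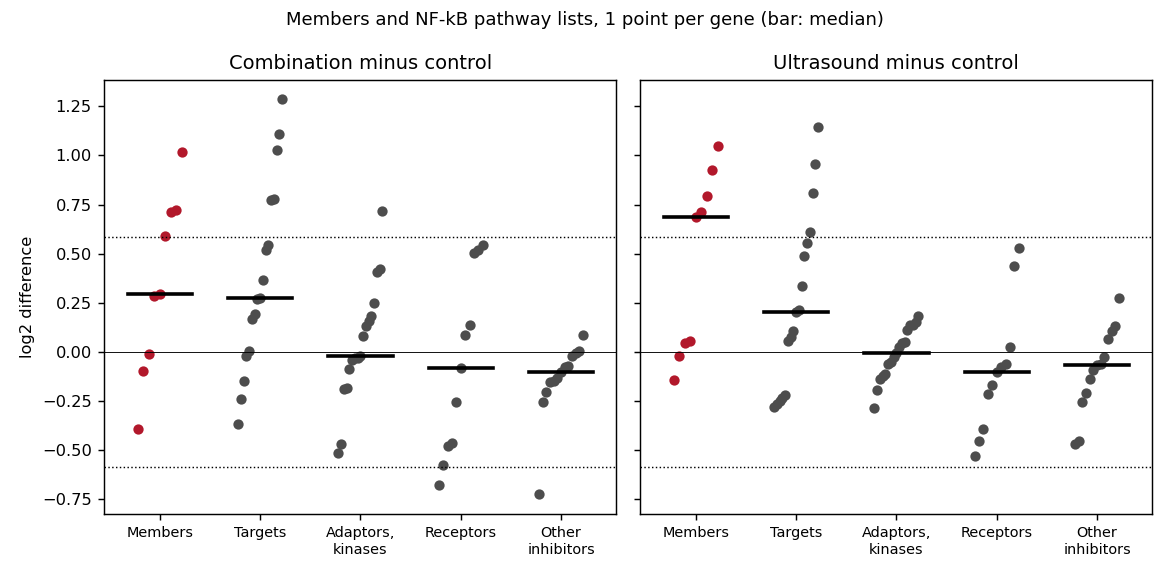
log2 difference of the combination (left) and ultrasound (right) from control for the 9 members and 4 pathway lists, 1 point per measured gene, with the median as a bar and 1.5-fold as dotted lines. Members and target genes have positive medians in both panels, and the medians of the other 3 lists lie between -0.10 and -0.0075.

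The genes with the pattern nearest to NFKBIA over the 3 log2 differences from control were SETD1B, a histone methyltransferase, UBALD2 and APOL6, at distances of 0.057, 0.084 and 0.087, and 37 of 10619 genes lay within 0.2. Those nearest to NFKBIZ were ADM, which encodes the peptide adrenomedullin, C21orf58 and the interferon-induced IFIT3, at distances of 0.12, 0.12 and 0.13, with 14 genes within 0.2.

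The arrays carried the myeloid identity of the line in part. The granule genes ELANE, AZU1 and PRTN3, the lysozyme gene LYZ and the myeloid factor CEBPA read between 1368 and 10586 on every array, while CD14 and FCGR1A were below the floor on all 4. The summed signal of the 11 myeloid markers was 23325 in the combination, 27056 with ultrasound, 21666 with Sonazoid and 23877 in control. Other myeloid markers differed between arrays. CSF1R, the receptor of the macrophage growth factor, was at 78.9 in the combination, 93.1 with ultrasound, 57.1 with Sonazoid and 32.7 in control. The combination was 2.41-fold and ultrasound 2.85-fold above control. SPI1, the myeloid factor PU.1, was at 59.3, 106, 83.0 and 120 in the same order, with the combination 2.03-fold below control, and MPO was above the floor with Sonazoid alone, at 28.6. Of the markers of other cell types, NKG7 of the T and NK list read 2771 to 3197 and PECAM1 of the fibroblast and endothelial list, which myeloid cells also carry, 648 to 810. COL1A1 at 81.2 to 131, PAX5 at 85.1 to 102 and CD79A at 72.5 to 107 were above the floor on every array. The part of these markers in the results was not tested. These are bulk samples, in which fewer cells of a type and less RNA per cell cannot be told apart. The log2 differences of the control genes ACTB and GAPDH from control lay between -0.16 and 0.14 on the 3 treated arrays.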

How the data were processed

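Gene expression was measured in U937 cells on 4 Affymetrix U133 Plus 2.0 arrays, 1 per group. Per the labels' protocols, RNA was DNase-treated and biotin-labelled with a one-cycle 3′ amplification kit. The values deposited by the authors are linear intensities of 54675 probe sets. Which summarisation algorithm and scaling the authors used is not stated in the labels, nor are detection calls.

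Array means trimmed by 2% at each end differed 1.16-fold between arrays, so each array was scaled to their mean, with factors of 0.923 for the combination, 1.07 for ultrasound, 0.977 for Sonazoid and 1.04 for control. The floor was the median, 23.8. Probe sets with 1 symbol in the platform annotation were kept (41097), with symbols updated through Entrez identifiers and the RefSeq table of GRCh38.p14. Python 3.11.15, numpy 2.4.6 and pandas 2.3.3 were used. The script was tested on simulated data. Members, lists and the 1.5-fold limit were chosen with earlier results of these data known. Genes named outside the members were, for each list, the 3 farthest from 0 in the combination against control, the 3 nearest in pattern to NFKBIA and NFKBIZ, and control genes. Cell type markers and the genes of the closing observations were named outside this rule, after their values were seen. Precision is limited by the number of arrays. The alternatives tried were no scaling, quantile normalisation, a floor of 100, no floor, a pseudocount of 16, the mean of probe sets, gene-specific probe sets and a 2-fold limit.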

Additional observations from a re-analysis of the deposited data

How the results depend on the processing

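Of 288 single-member differences recomputed, 263 moved by under 0.2 on the log2 scale, 23 by more, and 2 differences of at least 1.5-fold turned sign, both of NFKB2 with gene-specific probe sets (-0.31 in the combination against control and -0.093 with Sonazoid against control). Of the smaller differences 15 turned sign too, 11 of them with the values as deposited, and each was at most 0.21 in size as reported. Without scaling, the median of all genes shifted by 0.17 in the combination against control and by 0.21 in the combination against ultrasound; the member median in the combination against ultrasound was 0.11 in place of -0.10, with 0 members lower in place of 1. Members at least 1.5-fold higher in the combination against control, 4 as reported, numbered 2 with a floor of 100, 2 with the pseudocount, 2 with the mean of probe sets, 0 with gene-specific probe sets and 1 at 2-fold. With ultrasound against control, 5 became 3 with a floor of 100, 1 with gene-specific probe sets and 1 at 2-fold. With Sonazoid against control, 1 became 0 with a floor of 100, the pseudocount, the mean of probe sets, gene-specific probe sets and 2-fold. In the combination against Sonazoid, 3 became 2 with a floor of 100 (without NFKBIZ) or the mean of probe sets (without TNFAIP3), 0 with gene-specific probe sets and 0 at 2-fold. Lower members in the combination against ultrasound, 1 as reported, became 2 with gene-specific probe sets and 0 at 2-fold. The member median of ultrasound against control, 0.69, was 0.21 with a floor of 100, 0.41 with the mean of probe sets and 0.054 with gene-specific probe sets, which gave -0.011 in the combination against control and -0.069 in the combination against Sonazoid. Gene-specific probe sets cover 5 members, without NFKBIA, NFKBIZ, TNFAIP3 and RELA. The 5 members with both arrays with ultrasound above became 2 with gene-specific probe sets, and the 1 below became 0 under quantile normalisation and 2 with the mean of probe sets. A 1.5-fold call at signals near the floor is the least certain, and that of NFKB2 in the combination against control was lost with the pseudocount (log2 0.55). The call of NFKBIA in the same comparison, at much brighter signals but just inside the limit, was lost with it too. No paired analysis was possible because each group has 1 array and the labels give no replicate numbers.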

Other observations

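Some further genes of the pathway are given here, chosen after their values were seen. NFKBID, which encodes a nuclear IkB, was at 173 in the combination, 199 with ultrasound, 109.9 with Sonazoid and 182 in control, so that Sonazoid alone was the low array, by 1.65-fold against control. TNF, a cytokine that activates the canonical branch, was at 206 in the combination, 265 with ultrasound, 111 with Sonazoid and 119.9 in control. Both arrays with ultrasound stood above both without, as for NFKBIA and TNFAIP3. Ultrasound alone was the highest array, 2.21-fold above control, and the combination was 1.86-fold above Sonazoid. Among the 18 measured target genes 9 had both arrays with ultrasound above both without and 1 had both below, where 18.8% and 17.8% of all genes did, counts not repeated with the values as deposited. IL1B was the gene with both below, at 144 in the combination, 140.5 with ultrasound, 186 with Sonazoid and 170.4 in control. Of the other interleukin targets, IL6 and IL1A were below the floor on all arrays. The interleukin gene CXCL8 was at 1084 in the combination, 877 with ultrasound, 746 with Sonazoid and 755 in control.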
